A study of Mus musculus with 56 samples.

Results

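The genes described here encode the aminoacyl-tRNA synthetases, the enzymes that join each amino acid to its tRNA. The members were chosen by symbol, as every gene named with a single capital letter followed by ars, with or without a final 1 or 2, together with Farsa, Farsb, Eprs and Tarsl2. This rule uses no measured value, and it found 38 of the 22864 genes listed. They comprised 20 cytosolic enzymes, 17 mitochondrial enzymes whose symbols end in 2, and Tarsl2, a further threonyl enzyme that ends in 2 but is not the mitochondrial one and was kept apart.

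PolyA RNA-seq was performed on hearts of female C57BL/6J mice, an inbred strain, aged 9 weeks, whose day held 12 h of light followed by 12 h of dark. Food was given for 7 days only in the light (daytime-restricted feeding, DRF) or only in the dark (nighttime-restricted feeding, NRF, the reference). Hearts were collected at 7 time points (zeitgeber time, ZT, counts the hours since lights on) every 4 h from ZT0 to ZT24, with 4 libraries for each of the 14 combinations and 56 in all, so that ZT0 and ZT24 are the same clock hour in different libraries. The labels do not say whether the replicates came from separate animals, so the p-values measure the spread between these libraries. No group carries an altered allele.

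A cell makes protein with 2 sets of synthetases. The cytosolic set charges the tRNAs that read nuclear mRNAs, and several of its members sit together in a multi-synthetase complex held by scaffold proteins. The mitochondrial set is encoded in the nucleus, imported, and charges the tRNAs of the few proteins made inside mitochondria, most of them respiratory chain subunits, on which the heart depends. Gars and Kars each encode both forms from a single gene and were counted as cytosolic. Cytosolic synthetase genes are also known targets of ATF4, the transcription factor of the amino acid and stress response, whose binding element joins a C/EBP and an ATF core.

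The upstream letters of the members were searched for this element, to show the regulatory sequence that the ATF4 target list below refers to. RefSeq promoters (GRCm38.p6) were matched for 28 of the 38 members, and in the 250 bases before the start site TGATGNAA on either strand lay in 3 of 13 cytosolic promoters (Aars, Gars and Tars) and 0 of 14 mitochondrial ones, against 3.45% of all 32851 promoters. Among cytosolic genes, Cars, Hars, Lars, Nars, Rars, Vars and Wars had no matched promoter. At so low a share, 0 of 14 does not set the mitochondrial class apart from all promoters. When the window was widened to the 50 bases after the start, a step taken after the first counts were seen, Iars and Yars also matched, which made 5 of 13 and 0 of 14 against 3.97%. Another pair of motifs was searched. CACGTG, the E-box bound by clock and MYC-family factors, lay upstream of Aars, Farsb and Iars (6.02% of all promoters), and in the wider window also of Tars and Ears2 (7.15%). TTATGTAA, a D-box, lay in 0 of the 28 in either window (0.819% and 0.938% of all promoters). The 3 upstream stretches follow, 5′ to 3′ on the gene's strand, with the match to the ATF4-type element, there on the opposite strand, in capitals.
Aars, chr8:111033690-111033777, plus strand: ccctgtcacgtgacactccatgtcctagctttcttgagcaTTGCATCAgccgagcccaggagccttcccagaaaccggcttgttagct
Gars, chr6:55037931-55038000, plus strand: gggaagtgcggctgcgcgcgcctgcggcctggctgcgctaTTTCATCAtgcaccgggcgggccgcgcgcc
Tars, chr15:11399659-11399713, minus strand: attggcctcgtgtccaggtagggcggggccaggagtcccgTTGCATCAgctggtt
The Aars match lies 112 to 105 bases before the start, the Gars match 30 to 23 and the Tars match 15 to 8. A match describes the letters only.

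All 38 members were expressed. Levels are given as TPM (reads per base of exon length, scaled to a fixed sum per library) and averaged from 3.35 TPM for Wars2 to 63.2 TPM for Nars. The 20 cytosolic genes had a median of 22.7 TPM and the 17 mitochondrial genes a median of 10.1 TPM, against 9.68 TPM for the 13887 genes tested. The most abundant cytosolic messages were Nars (asparaginyl), Kars (lysyl, 51.7 TPM), Gars (glycyl, 45.0 TPM) and Wars (tryptophanyl, 40.5 TPM), and the least abundant was Cars (cysteinyl, 5.27 TPM). Among the mitochondrial enzymes Iars2 (isoleucyl, 27.2 TPM), Fars2 (phenylalanyl, 18.5 TPM) and Yars2 (tyrosyl, 17.8 TPM) led. No member fell below 142 reads in any library (Pars2).

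The levels varied little. The median coefficient of variation over the 56 libraries was 8.54% for cytosolic and 8.89% for mitochondrial genes, against 13.97% over all genes tested, and 35 of the 38 members lay under that median. The genes tested included some with 0 reads in a library, and the comparison was not matched for level. Nars varied least, at 5.39%. Wars (18.2%) and Pars2 (prolyl, mitochondrial, 18.04%) varied most. The summed level of the cytosolic genes was 515 ± 23.6 TPM under DRF and 540 ± 31.6 TPM under NRF, and that of the mitochondrial genes was 179 ± 10.5 and 182 ± 9.76 TPM (SD, n = 28 each).

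**Figure D1:**
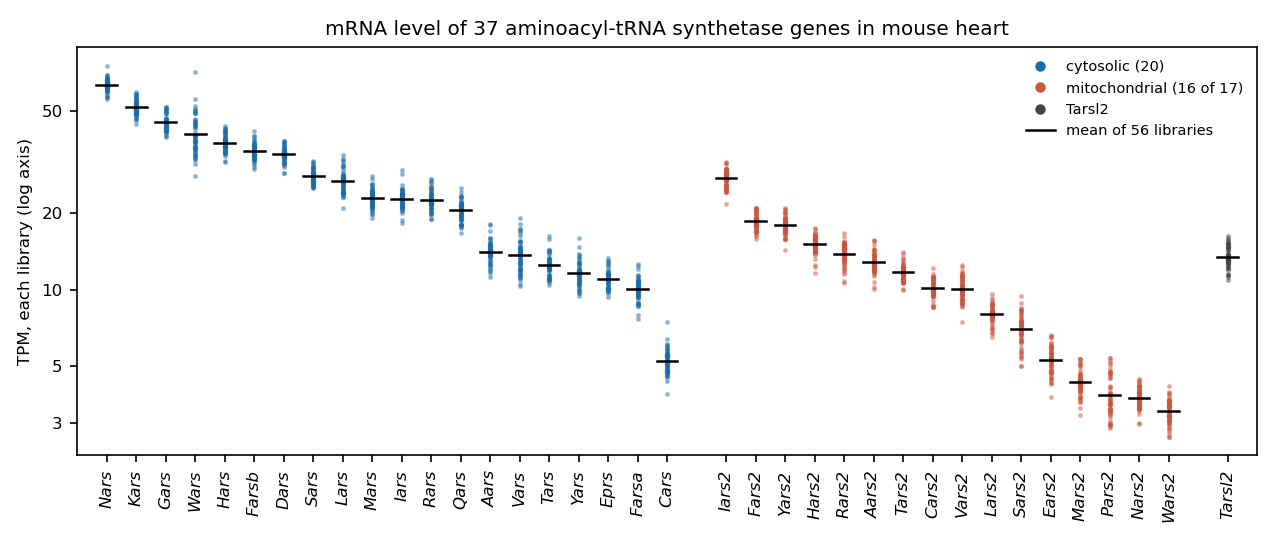
TPM on a log axis for 37 of the 38 genes, ordered by mean within cytosolic, mitochondrial and Tarsl2. Points are the 56 libraries and black lines their means, which run from 3.35 TPM (Wars2) to 63.2 TPM (Nars), with the widest spread in Wars and Pars2.

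The cytosolic and mitochondrial enzymes of the same amino acid were set side by side in 18 pairs. Eprs, which carries both the glutamyl and the prolyl enzyme, was paired with Ears2 and with Pars2, and both phenylalanyl subunits were paired with Fars2. The cytosolic message was more abundant on average in 14 pairs, and in 12 of them in all 56 libraries. The ratio reached 16.7 for Nars over Nars2 and 12.1 for Wars over Wars2. In 3 pairs the mitochondrial message was higher in all 56 libraries, as for Cars2 over Cars (ratio of Cars to Cars2, 0.521), Fars2 over Farsa and Yars2 over Yars. Levels per length depend on the length used. With the longest coding transcript in place of all merged exons, 13 pairs had the higher cytosolic level. The ratio of Nars to Nars2 then fell to 8.70, under those of Wars to Wars2 (10.9) and Eprs to Pars2 (10.3, from 2.84), and that of Lars to Lars2 went from 3.32 to 1.13. The ratio of Yars to Yars2 crossed 1, from 0.651 to 1.19, as did those of Farsb to Fars2 (1.89 to 0.898) and Tars to Tars2 (1.06 to 0.730) the other way.

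Light phase was compared with dark phase to see which members differed between them on average. An average over regimens does not show that a gene did so under each. ZT4 and ZT8 were set against ZT16 and ZT20, averaged over both regimens, 16 libraries each. Of the 38 members 12 were higher in the light and 0 lower (limma on log2(TPM + 1), Benjamini-Hochberg adjusted p under 0.05 over all 13887 genes), which is 7 of 20 cytosolic and 5 of 17 mitochondrial genes, and after median-of-ratios scaling 7 were higher, without Dars, Hars, Nars, Nars2 and Tars, and 2 (Qars and Wars2) were lower. Of all genes tested 34.1% passed in either direction and 26.4% were higher in the light, and 12 of 38 is 31.6%. Of all calls 22.7% were lower in the light, and 48.0% after median-of-ratios scaling.

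The mitochondrial seryl enzyme gene Sars2 had the largest difference. It ranged from 6.27 to 9.46 TPM in the light, with a median of 7.55, and from 5.00 to 7.15 in the dark, with a median of 6.12. The ranges overlapped, and the log2 difference was 0.28 ± 0.05 (SE, n = 16 each, limma adjusted p = 4.61e-06). Ears2, the mitochondrial glutamyl enzyme, ranged from 4.34 to 6.505 TPM in the light (median 5.74) and from 3.80 to 5.39 in the dark (median 4.68), a difference of 0.25 ± 0.04. Vars, the cytosolic valyl enzyme, ranged from 10.3 to 19.01 TPM in the light (median 14.4) and from 10.9 to 14.8 in the dark (median 12.0), a difference of 0.24 ± 0.05. These 3 genes were singled out after their values were seen. The others that rose in the light were Rars2 (0.19), Lars (0.18), Farsa (0.16), Vars2 (0.14), Hars (0.12), Tars, Dars and Nars2 (0.11 each) and Nars (0.07, its call lost in 11 of the 32 fits that each left out a single library). Hars and Hars2 overlap on opposite strands, and the reads of the pair were not separated here. The median difference of the members was 0.07 and that of all genes 0.05. Among marker lists, 3 of 5 mural, 2 of 5 fibroblast, 1 of 5 endothelial and 1 of 7 ventricular muscle genes were also higher in the light, and 1 of 5 macrophage and 1 of 2 tested skeletal muscle genes lower. The mural genes had a summed level of 606 to 1019 TPM in the light against 555 to 773 in the dark, and the part of these cell types in the result was not tested.

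**Figure D2:**
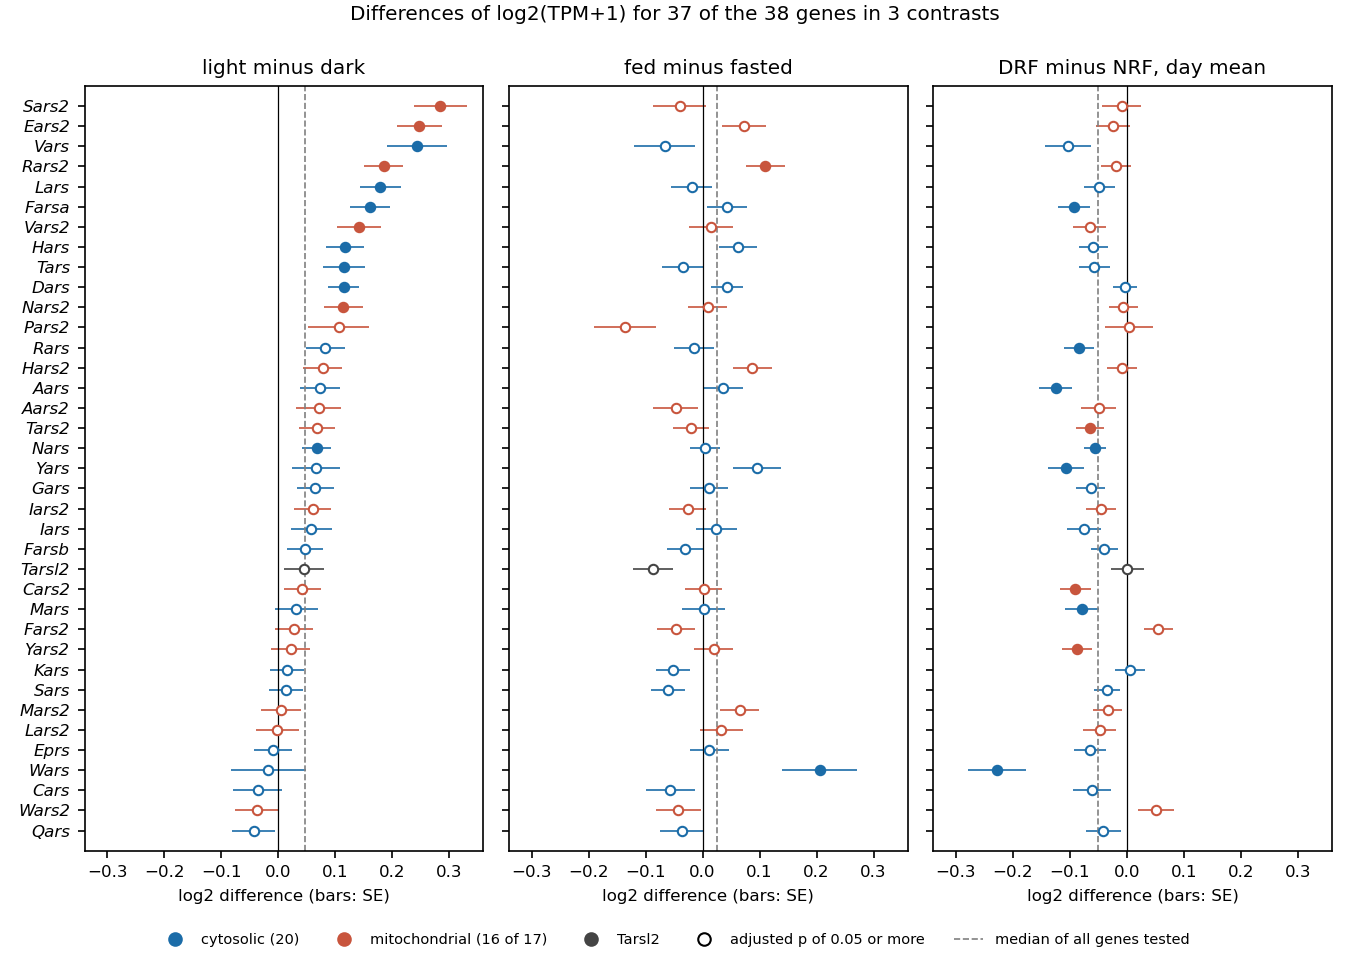
Log2 differences (points) with SE (bars) of 37 of the 38 genes for light minus dark, fed minus fasted, and DRF minus NRF in the day mean. Filled points have an adjusted p under 0.05 and dashed lines mark the median of all genes tested. Filled points number 12, 2 and 10 from left to right.

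Fed hearts were compared with fasted hearts to see which members differed with food on average over both regimens. DRF at ZT4 and ZT8 with NRF at ZT16 and ZT20 (fed) was set against the opposite groups (fasted), so light phase and regimen were balanced and 16 libraries stood on each side. Only 2 of the 38 members passed, both higher when fed, against 9.84% of all genes in either direction and 6.99% higher. At an unadjusted p under 0.05 there were 6 members, against 23.2% of all genes. The members' median was 0.00 and that of all genes 0.03, and 35 members differed by less than 0.1. After median-of-ratios scaling 4 members passed, Wars higher and Sars, Pars2 and Tarsl2 lower. Of all calls 29.0% were lower when fed, and 52.1% after that scaling.

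Wars, the cytosolic tryptophanyl enzyme, ranged from 34.1 to 55.5 TPM in fed hearts, with a median of 44.6, and from 27.8 to 45.7 in fasted hearts, with a median of 38.02. The ranges overlapped, and the log2 difference was 0.21 ± 0.07 (SE, n = 16 each, 95% interval 0.07 to 0.34, limma adjusted p = 0.0374), or 15.3%. Under NRF its fed libraries held 52.1, 49.1, 50.3 and 44.3 TPM at ZT16 and 45.03, 45.9, 44.9 and 38.4 at ZT20, and its fasted libraries 42.9, 44.5, 37.6 and 45.7 at ZT4 and 39.7, 33.3, 32.03 and 41.3 at ZT8. Under DRF the fed libraries held 37.7, 55.5, 46.5 and 44.0 TPM at ZT4 and 40.1, 35.7, 34.1 and 40.1 at ZT8, and the fasted ones 38.7, 43.5, 35.995 and 34.5 at ZT16 and 38.4, 27.8, 35.5 and 36.3 at ZT20. Within both regimens fed and fasted libraries thus overlapped, and the fed DRF mean at ZT8 (37.5 TPM) lay below the fasted one at ZT16 (38.2 TPM). At the other times the means were 34.96, 34.2 and 34.9 TPM under DRF and 43.8, 45.2 and 46.1 under NRF at ZT0, ZT12 and ZT24. The fed minus fasted difference was 0.19 within DRF and 0.22 within NRF, and neither passed on its own (adjusted p = 0.130 and 0.0792). After median-of-ratios scaling the NRF difference was 0.26 and passed (adjusted p = 0.0165), and the DRF difference was 0.11 (adjusted p = 0.381). The call was lost in 15 of the 32 fits that left out a single library, with adjusted p up to 0.0739.

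Rars2, the mitochondrial arginyl enzyme, ranged from 11.7 to 16.6 TPM in fed hearts (median 14.4) and from 10.6 to 16.03 in fasted hearts (median 12.8). The difference was 0.11 ± 0.03 (SE, n = 16 each, 95% interval 0.04 to 0.18, limma adjusted p = 0.0322), and it was lost in 11 of the 32 fits without a single library and after median-of-ratios scaling (adjusted p = 0.111). Under DRF the fed libraries held 15.3, 14.5, 16.6 and 14.8 TPM at ZT4 and 15.2, 13.98, 15.1 and 14.1 at ZT8, and the fasted ones 12.5, 11.5, 11.9 and 10.6 at ZT16 and 12.2, 10.8, 13.6 and 12.8 at ZT20, which did not overlap. Under NRF the fasted libraries held 16.03, 12.6, 13.5 and 14.6 TPM at ZT4 and 14.7, 13.1, 12.8 and 14.3 at ZT8, and the fed ones 13.1, 11.7, 13.0 and 14.4 at ZT16 and 14.9, 14.4, 11.98 and 12.2 at ZT20, which did. At ZT0, ZT12 and ZT24 the means were 14.4, 14.3 and 13.4 TPM under DRF and 14.4, 14.1 and 14.4 under NRF. The gene was also among those higher in the light. Its fed minus fasted difference was 0.30 within DRF (adjusted p = 1.25e-05) and -0.08 within NRF (adjusted p = 0.285).

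Within a single regimen, fed and light phase cannot be told apart. Under DRF, where the fed hearts are those of the light phase, 11 members were higher when fed and 0 lower (21.9% of all genes higher). After median-of-ratios scaling 4 were higher (Farsa, Ears2, Rars2 and Sars2) and 5 lower (Cars, Kars, Qars, Sars and Wars2), and of all calls 48.7% were lower, against 17.4% before. Under NRF, where the fed hearts are those of the dark phase, 6 were lower when fed and 0 higher (14.4% of all genes lower), and after that scaling 6 were lower and Wars higher, with 52.1% of all calls lower against 64.1% before. Lars, Ears2 and Sars2 were in both sets, as genes higher in the light under each regimen, and after median-of-ratios scaling Lars was lost from the DRF set (adjusted p = 0.189). Markers of atrial muscle differed widely between libraries, with a summed level of 239 to 5057 TPM (median 1354) in fed and 95.0 to 3598 (median 845) in fasted hearts, and 0 of the 5 atrial genes passed the fed and fasted comparison. Of the other marker lists 1 of 5 endothelial genes passed it, lower when fed. Within DRF 2 fibroblast, 1 mural and 1 ventricular gene were higher when fed and 1 macrophage and 1 skeletal muscle gene lower, and within NRF 1 endothelial, 1 fibroblast, 1 mural and 1 ventricular gene were lower and 1 macrophage gene higher. The part of these tissues and cell types in the results was not tested.

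The fed minus fasted difference was also compared within each pair of cytosolic and mitochondrial enzymes. Of 18 pairs, 2 differed (two-sided permutation test of regimen labels within ZT, 100000 resamples, adjusted over the 18 pairs). Wars exceeded Wars2 by 0.25 on the log2 scale (permutation p = 9.70e-04, adjusted 0.0175), with 0.21 for Wars and -0.04 for Wars2. Rars fell short of Rars2 by 0.12 (difference -0.12, permutation p = 0.00229, adjusted 0.0206), with -0.02 for Rars and 0.11 for Rars2. Wars2 ranged from 2.73 to 3.70 TPM in fed and 2.66 to 3.70 in fasted hearts, and Rars from 20.2 to 23.9 and 18.8 to 27.1, so the fed and fasted ranges of both partners overlapped. The other pairs did not pass after adjustment. No pair passed when replicate 2 or replicate 3 was left out of every group.

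**Figure D3:**
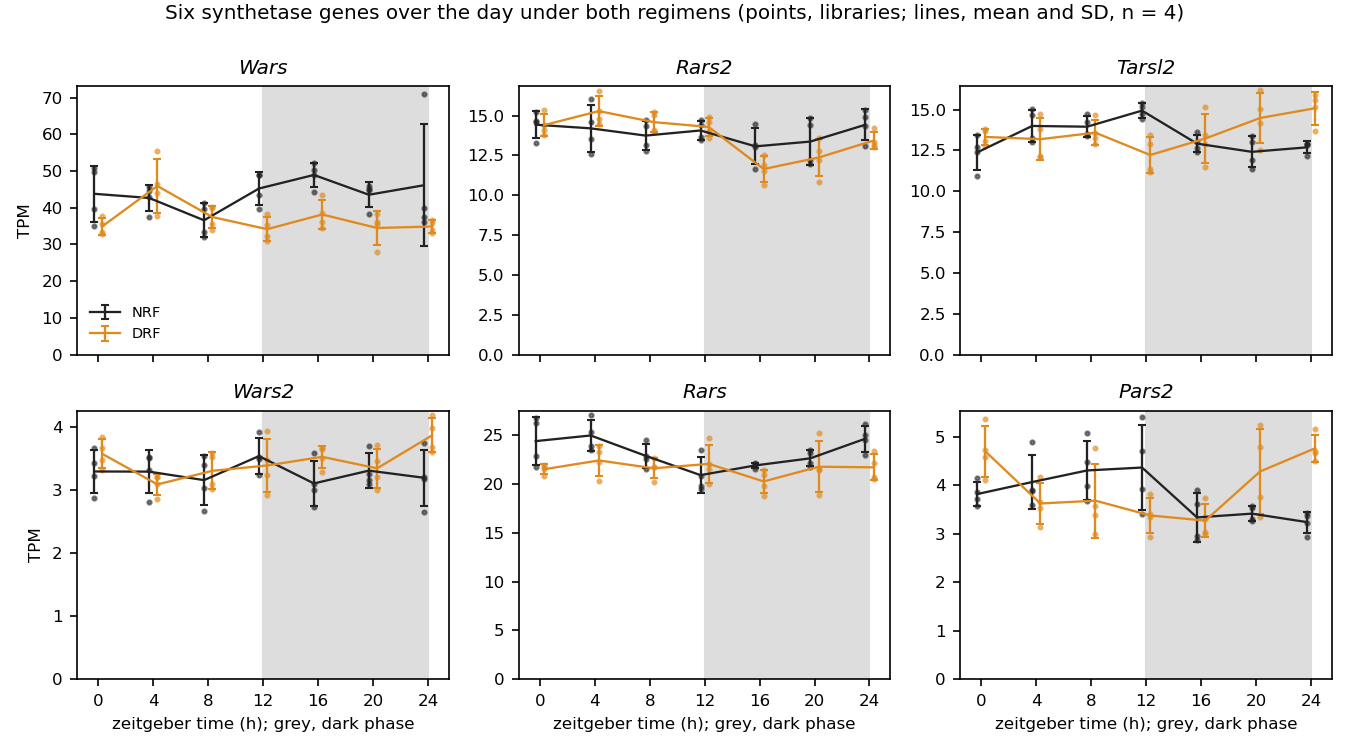
TPM of Wars, Rars2, Tarsl2, Wars2, Rars and Pars2 over zeitgeber time under NRF (black) and DRF (orange). Points are libraries, lines are means with SD (n = 4), grey marks the dark phase and each axis starts at 0. The mean of Wars under NRF lies above that under DRF at ZT0 and from ZT12 to ZT24, and Tarsl2 under DRF lies below NRF at ZT12 and above it at ZT20 and ZT24.

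In the mean over the day, 10 of the 38 members were lower under DRF and 0 higher, against 26% of all genes in either direction and 24.3% lower. The median difference, -0.05, was that of all genes (-0.05). The 10 were 7 of 20 cytosolic genes (Aars, Farsa, Mars, Nars, Rars, Wars and Yars) and 3 of 17 mitochondrial ones (Cars2, Tars2 and Yars2). After median-of-ratios scaling Aars and Wars were lower and Fars2 and Wars2 higher, and of all calls 57.6% were lower, against 93.6% before. The calls of Mars and Tars2 were lost in 24 and 23 of the 56 fits without a single library.

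Wars had the largest difference. It ranged from 27.8 to 55.5 TPM under DRF (median 35.96) and from 32.03 to 71.03 under NRF (median 43.9), a log2 difference of -0.23 ± 0.05 (SE, n = 28 each, limma adjusted p = 0.00122), and it passed in each fit without a single library. The library of 71.03 TPM, NRF at ZT24 replicate 2, stood well above the other 3 of its group (39.9, 37.6 and 36.05 TPM). Aars, the cytosolic alanyl enzyme, followed at -0.12 ± 0.03 (adjusted p = 0.00152) with a median of 13.5 TPM under DRF and 14.4 under NRF.

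Cell type markers were compared between regimens too, on TPM scaling. On that scaling 24.3% of all genes were lower under DRF. Of all calls 93.6% were lower, against 57.6% after median-of-ratios scaling, for which the markers are not given. All 5 endothelial genes were lower under DRF, with a summed level of 428 to 702 TPM (median 521) against 476 to 816 (median 586) under NRF. Of 5 genes each, 3 fibroblast, 3 mural and 3 macrophage genes were lower, as was 1 of 2 tested skeletal muscle genes, while 1 of 7 ventricular muscle genes was higher and 1 lower. The 3 skeletal muscle genes found summed to 886 to 1349 TPM under DRF and 1013 to 1634 under NRF. They were thus present in every library, and whether heart muscle itself was their source was not tested. The atrial genes had a median log2 difference of 1.16, with summed levels of 95.0 to 5486 TPM (median 1803) under DRF and 129 to 4396 (median 609) under NRF, and 1 of 5 passed. The 7 ventricular muscle genes summed to 23953 to 37892 TPM over all libraries, and no listed marker was at 0 in all libraries. Whether these markers contribute to the regimen difference of the synthetases was not tested, and in whole hearts fewer cells of a type and less RNA per cell cannot be told apart.

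The regimens were also compared at each time. At ZT0, 5 of 38 were lower under DRF and 0 higher (11.5% of all genes passed, 8.43% lower), namely Aars, Iars, Yars, Farsb and Cars2. After median-of-ratios scaling Farsb was lost, Mars joined the lower genes and Pars2 was higher. The calls of Farsb, Yars and Cars2 were lost in 5, 3 and 2 of the 8 fits without a single library of that time. Aars held 13.0, 12.6, 13.3 and 11.6 TPM under DRF and 18.01, 14.4, 17.9 and 15.1 under NRF, without overlap, a log2 difference of -0.35 ± 0.07 (limma adjusted p = 6.27e-04). The cytosolic genes as a class had a median of -0.15 at ZT0, against -0.05 for all genes and -0.00 for the mitochondrial class. A pair of libraries stood apart. The 20 cytosolic genes summed to 612, 516, 593 and 517 TPM in the 4 NRF libraries and to 509.7, 513, 537 and 485 under DRF, so NRF replicates 1 and 3 were above all others. They were so for the mitochondrial genes too, which summed to 197, 170.2, 201 and 178 TPM under NRF and to 181, 179.7, 182 and 179 under DRF. Without both of them, a choice made after their values were seen, the cytosolic median was -0.03 against -0.00 for all genes, and 0 members passed (limma), with 3 at an unadjusted p under 0.05 against 13.9% of all genes. At ZT24 the cytosolic median was -0.02 and the Aars difference -0.08, which did not pass. The difference between ZT0 and ZT24, the same hour of the day, was not tested.

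At ZT4 and ZT8, 0 members passed (0.446% and 0.353% of all genes), and 2 members at each time had an unadjusted p under 0.05 (12% and 14.6% of all genes). At ZT12, 5 members were lower under DRF and 0 higher (7.65% of all genes passed, 6.37% lower), namely Lars, Tarsl2, Qars, Vars2 and Eprs. After median-of-ratios scaling Eprs and Tarsl2 were lost and Vars was gained. Lars, the cytosolic leucyl enzyme, held 24.1, 26.9, 23.7 and 24.9 TPM under DRF and 32.4, 30.5, 32.02 and 27.03 under NRF, and the groups did not overlap (-0.28 ± 0.07, adjusted p = 0.0121). Without replicate 3 of DRF at ZT12, 0 members passed at that time. At ZT16 only Kars passed (0.19 ± 0.06, adjusted p = 0.0442, 6.88% of all genes passed, 0.648% higher), higher under DRF with 54.2, 56.5, 53.9 and 58.0 TPM against 46.6, 48.6, 50.2 and 49.4, and the groups did not overlap. After median-of-ratios scaling Fars2 and Wars2 also passed, both higher. The Kars call was lost in 7 of the 8 fits without a single library at ZT16, although its value stayed between 0.17 and 0.20. Among marker genes, 1 endothelial, 1 mural, 1 ventricular and 1 skeletal muscle gene were lower under DRF at ZT0. At ZT12, 1 endothelial, 2 mural, 1 macrophage and 1 ventricular gene were lower and 1 mural gene higher. Their part in the calls of the members was not tested.

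Tarsl2 was the one member that passed at 3 times, with 11 members passing at 1 time and 26 at none. The shares of all genes that passed at 1 or 3 times were not counted, so the tally has no background. After median-of-ratios scaling the ZT12 call of Tarsl2 was lost (-0.20 ± 0.07, adjusted p = 0.0597), and Pars2 passed at 3 times (ZT0, ZT20 and ZT24). At ZT12 Tarsl2 held 12.9, 11.2, 11.4 and 13.4 TPM under DRF and 14.4, 15.4, 14.7 and 15.2 under NRF, all lower and without overlap (-0.27 ± 0.07, adjusted p = 0.0132). At ZT20 it held 14.2, 12.5, 15.0 and 16.2 TPM under DRF and 13.0, 13.4, 11.4 and 11.9 under NRF, which overlapped (0.20 ± 0.07, adjusted p = 0.0435, 14.8% of all genes passed, 3.36% higher). At ZT24 it held 15.6, 13.7, 15.9 and 15.2 TPM under DRF and 12.9, 12.8, 12.1 and 12.9 under NRF, all higher and without overlap (0.23 ± 0.07, adjusted p = 0.0323, 8.84% of all genes passed, 4.39% higher). The difference of its mean over the day was 0.00 ± 0.03 (95% interval -0.06 to 0.06) and did not pass. The calls were lost in 2, 6 and 5 of the 8 fits without a single library of that time, with differences of -0.32 to -0.24, 0.15 to 0.27 and 0.21 to 0.27. At ZT24 Pars2 also passed (0.44 ± 0.11, adjusted p = 0.00649). It held 4.66, 4.71, 4.51 and 5.17 TPM under DRF and 3.22, 3.43, 3.37 and 2.94 under NRF, without overlap. After median-of-ratios scaling Sars, Iars2 and Pars2 were also higher at ZT20, and at ZT24 Qars, Hars2, Iars2 and Wars2 were also higher and Rars and Wars lower.

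**Figure D4:**
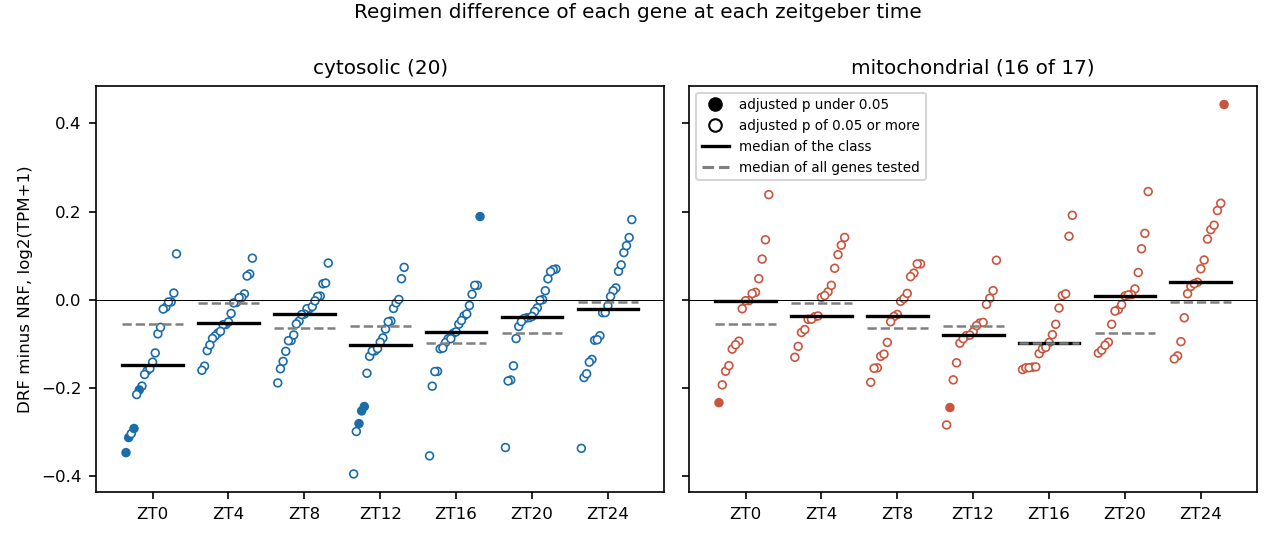
DRF minus NRF log2 difference of the 20 cytosolic (left) and 16 of the 17 mitochondrial (right) genes at each zeitgeber time, sorted within a time. Filled points have an adjusted p under 0.05, black lines are the median of the whole class and dashed lines the median of all genes tested. The cytosolic median at ZT0 is -0.15 with all libraries, and Pars2 at ZT24 is the highest point at 0.44.

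A 24-h rhythm was fitted under each regimen. Of the 38 members 12 were rhythmic under NRF (37.2% of all genes) and 12 under DRF (32.3%), with 5 rhythmic under both (17.5% of all genes), 7 under NRF alone and 7 under DRF alone. Passing under a single regimen does not show a difference, which was tested on its own. The rhythm differed between regimens in 10 members (27.5% of all genes), namely Farsb, Lars, Yars, Hars2, Iars2, Pars2, Rars2, Sars2, Vars2 and Tarsl2. They were 3 of 20 cytosolic and 6 of 17 mitochondrial genes with Tarsl2. Under the alternatives the count ran from 3 to 14 members, with 3 when ZT12 was left out, so many of these calls can be lost.

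The 5 genes rhythmic under both regimens gave peak times that can be compared. Pars2 peaked at 8.08 ± 0.93 h under NRF and 23.7 ± 0.93 h under DRF (SE), a shift of -8.41 ± 1.31 h. Vars2, the mitochondrial valyl enzyme, shifted by -6.19 ± 1.35 h, from 9.54 h to 3.35 h. Lars shifted by -5.17 ± 1.15 h, from 8.31 h to 3.14 h, and Sars2 by -3.86 ± 0.99 h, from 7.66 h to 3.80 h. Tars peaked at 3.13 h and 2.44 h, a shift of -0.69 ± 1.63 h, and its rhythm difference did not pass (adjusted p = 0.687). The shifts of these 4 genes were thus earlier under DRF and short of the 12 h between the feeding windows, while Tars stayed within its error. Tarsl2 peaked at 9.29 ± 0.79 h under NRF, where it was rhythmic, and did not pass under DRF (adjusted p = 0.11). The DRF peaks of 11 of the 12 rhythmic genes fell between 2.44 and 6.61 h, in the light phase, where 10 of the 12 NRF peaks lay too. Of all rhythmic genes 76.2% peaked in the light under DRF and 59.7% under NRF. Peak times are given on TPM scaling only. On that scaling 17.4% of all calls within DRF were lower in the light, when fed, against 48.7% after median-of-ratios scaling. The members went from 11 higher and 0 lower to 4 higher and 5 lower, so the share of peaks in the light may depend on the scaling.

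**Figure D5:**
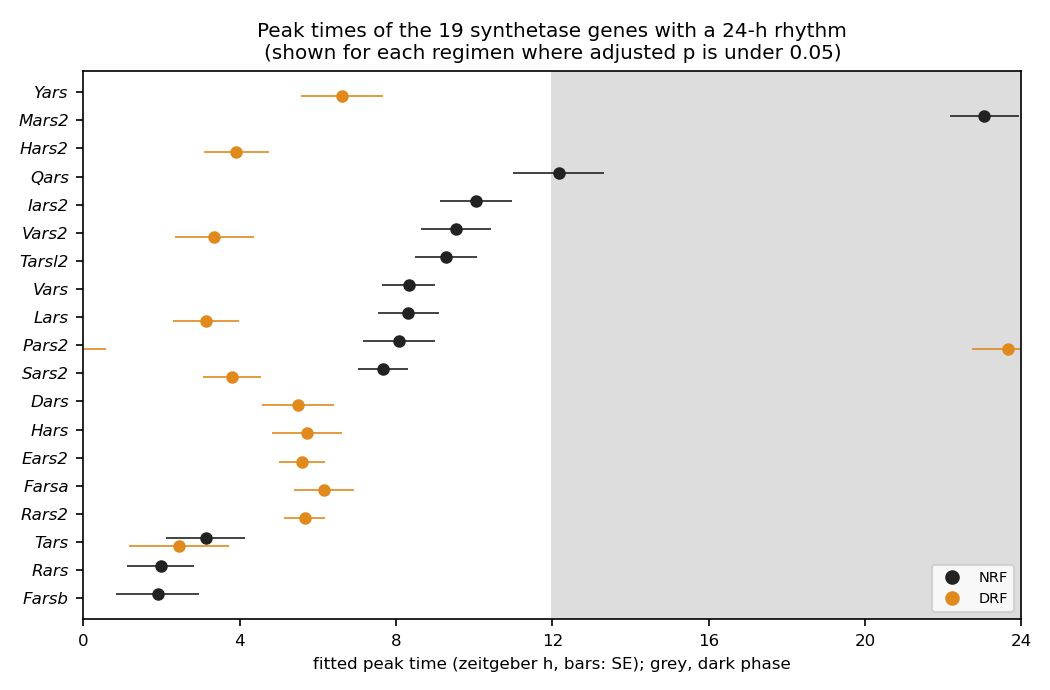
Fitted peak time with SE (bars) of the 19 genes rhythmic under at least 1 regimen, shown for NRF (black) and DRF (orange) only where the rhythm passed. Grey marks the dark phase. All but Pars2 under DRF, and Mars2 and Qars under NRF, peak between 1.90 and 10.05 h in the light phase.

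Within the groups, the members varied together from library to library. After each group's mean was removed, the median Pearson correlation over 56 libraries was 0.54 among the 190 pairs of cytosolic genes, 0.40 among the 136 mitochondrial pairs and 0.38 between the classes, against 0.18 for all gene pairs. All genes of a library share its depth and scaling. After median-of-ratios scaling the values were 0.24, 0.29 and 0.14, against -0.0022 for all gene pairs.

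Other genes of the charging pathway were taken from lists. Of the 3 scaffold genes of the multi-synthetase complex, 0 passed the fed and fasted comparison, Eef1e1 was higher in the light (0.19) and Aimp2 lower under DRF (-0.10). Of the 4 genes that complete mitochondrial charging, Qrsl1, a subunit of the enzyme that makes glutaminyl-tRNA in mitochondria, rose when fed, at 15.8 ± 1.63 TPM against 13.9 ± 1.70 (SD, n = 16 each, log2 difference 0.17 ± 0.05, limma adjusted p = 0.0169). Of 3 tested proofreading genes, Dtd2, which removes wrongly attached amino acids, fell by 0.17 when fed, at 6.17 ± 0.766 TPM against 7.07 ± 1.13 (adjusted p = 0.00420). Of 9 mitochondrial translation factors, Mtrf1l, a release factor, rose by 0.24 when fed, at 9.34 ± 0.708 TPM against 7.79 ± 1.02 (adjusted p = 3.36e-04). Of 7 cytosolic elongation genes 0 passed the fed and fasted comparison, which 9.84% of all genes passed. In the light 1 of 3 scaffold, 0 of 4 mitochondrial charging, 2 of 3 proofreading, 3 of 9 mitochondrial translation and 1 of 7 elongation genes were higher (26.4% of all genes), and 1 elongation gene was lower. In the day mean 1 scaffold, 1 proofreading and 2 mitochondrial translation genes were lower under DRF (24.3% of all genes) and 0 higher. After median-of-ratios scaling Qrsl1 was lost, and the elongation factors Eef1a2 and Eef2 and the mitochondrial factors Mrrf and Mtif3 were lower when fed against fasted.

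ATF4 targets outside the synthetases were also compared. Of 30 tested, 2 were higher when fed (Ddit3 and Atf5) and 4 lower (Chac1, Cth, Slc7a1 and Vldlr), against 6.99% and 2.85% of all genes, and after median-of-ratios scaling Slc6a9 was also higher. Their median was -0.01 against 0.03 for all genes before that scaling. In the light 5 of the 30 were higher and 7 lower (26.4% of all genes higher), with a median of -0.02 against 0.05 for all genes. In the day mean 1 was higher under DRF and 5 lower (24.3% of all genes lower). Ddit3, a stress transcription factor, stood at 24.4 ± 5.43 TPM in fed and 18.6 ± 5.04 in fasted hearts (0.38 ± 0.08, limma adjusted p = 7.17e-04). Chac1, which degrades glutathione, stood at 2.85 ± 1.44 and 5.12 ± 2.11 TPM (-0.67 ± 0.15, adjusted p = 0.00284). Atf4 itself, at 91.6 ± 15.9 and 83.1 ± 11.0 TPM, did not pass (0.13 ± 0.06, adjusted p = 0.143). Its mean over the day was lower under DRF (-0.18 ± 0.05, adjusted p = 0.00606), among 5 of 10 regulators of the stress response that were lower and 0 that were higher (24.3% of all genes lower). After median-of-ratios scaling 0 of the 10 passed, and Atf4 stood at -0.12 ± 0.05 (adjusted p = 0.0681). Of these regulators 1, Ppp1r15a, which reverses the stress mark on eIF2, fell by 0.21 when fed.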

How the data were processed

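The authors made the libraries from polyA RNA, and the submitters' processing notes name HISAT2 2.0.5, featureCounts 1.5.0-p3 and mm10. The use of strand was not stated. The deposited values, named TPM, were not linear TPM. In each library they were a constant multiplied by the log2 of 1 plus the depth-scaled reads, divided by exon length. Whole reads were recovered from their steps (99.9998% of 1191842 values within 0.1 of a whole read) and linear TPM was recomputed for 22849 of 22864 genes. Exon length came from GENCODE or, for 3 members (Hars, Lars and Nars), from a search for the length that gave whole reads. Recovered totals were 29.3 to 53.0 M per library. Whether a count is a read or a pair is not stated.

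Tests used limma 3.58.1 in R 4.3.3 on log2(TPM + 1) for genes that averaged 1 TPM or more, with 14 group means or a 24-h harmonic, which stood in for the study's rhythm tool, and Benjamini-Hochberg adjustment over 13887 genes. Fold changes are on this scale and understate those of low genes. Members and lists were chosen with earlier results of these data known. Values in every group were given, as numbers or drawn, for members past the fed and fasted threshold, the largest fall of the day mean, any member past the threshold at 3 times and pairs past theirs. The 3 promoter motifs and both windows were not planned. The alternatives were another scaling, pseudocount, filter and block, and fits without replicates, times or, chosen after seeing the data, single libraries or a pair at ZT0. A single member is counted but not reported by name or drawn here.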

Additional observations from a re-analysis of the deposited data

Results flagged for a closer look

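Among the 5 genes followed in every group (Wars, Wars2, Rars, Rars2 and Tarsl2), 70 groups of 4 libraries were screened for a library far from the other 3, and chance marks about 1 group in 20. In Wars, NRF at ZT24 replicate 2 held 71.0 TPM against 39.9 for its nearest neighbour, a gap of 0.891 of the group's range, and NRF at ZT20 replicate 4 held 38.4 against 44.9, a gap of 0.861. In Tarsl2, NRF at ZT24 replicate 3 held 12.1 TPM against 12.8, a gap of 0.864, in a group that spans less than 1 TPM.

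In this design the difference of the light effect between regimens is the fed and fasted comparison itself, so the calls of Wars (limma adjusted p = 0.0374) and Rars2 (adjusted p = 0.0322) restate those of the report. The 24-h rhythm differed between regimens for Pars2 (adjusted p = 1.50e-04), Tarsl2 (adjusted p = 5.72e-04), Vars2 (adjusted p = 0.00224), Lars (adjusted p = 0.00225), Sars2 (adjusted p = 0.00747), Farsb (adjusted p = 0.0138), Iars2 (adjusted p = 0.0163), Hars2 (adjusted p = 0.0242), Rars2 (adjusted p = 0.0405) and Yars (adjusted p = 0.0468).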

How the results depend on the processing

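The number of members past the threshold for light against dark stayed between 9 and 15 under every alternative run. Median-of-ratios scaling gave 4 members for fed against fasted, 4 for the day mean, 3 at ZT16, 4 at ZT20 and 8 at ZT24. Without NRF at ZT0 replicates 1 and 3 together, 0 members passed at ZT0. Without a filter on low values there was 1 for fed against fasted and 0 at ZT16 and ZT20. Fed against fasted gave 0 without ZT4, ZT8 or ZT20. The day mean gave 5 without ZT0 and 3 without ZT8 or ZT16, rhythm under DRF 6 without ZT16, and the rhythm difference 3 without ZT12 and 6 without ZT20 or ZT24. Leaving out a replicate number or a single library gave 0 to 3 for fed against fasted, 3 to 14 for the day mean, 8 to 14 and 6 to 13 for rhythm under NRF and DRF, 4 to 13 for the rhythm difference, 1 to 9 at ZT0, 0 at ZT4 and ZT8, 0 to 12 at ZT12, 0 to 4 at ZT16, 0 to 2 at ZT20, 1 to 3 at ZT24 and 0 to 3 pairs. Over every alternative run, rhythm under NRF gave 8 to 18 members and the rhythm difference 3 to 14. Over all genes, fed against fasted gave 1367 calls and between 326 and 1853 under the alternatives. With the replicate number as a block, 0 members passed at ZT16 and 2 for fed against fasted. Same-numbered libraries correlated by 0.0169 on average and others by -0.0056, over a range of -0.40 to 0.57 for the same number, and 21 of 56 were closest to their own number, against 14 if the 4 numbers shared them equally. Neither the labels nor every correlation pairs the numbers, so pairing was not assumed. The day-mean difference of Nars turned to 0.0054 (adjusted p = 0.867) under median-of-ratios scaling. Of the values of single members, 296 of 430 planned and 986 of 1125 added alternatives kept direction and threshold. The cause of these changes was not tested.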
